A study of Mus musculus with 16 samples.

Results

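Periosteal stem cells (PSC) were compared with type 2 periosteal progenitors (PP2), 2 cell populations sorted by flow cytometry from the femurs of C57/B6 mice at postnatal day 6. The comparison rests on 8 of the 16 RNA sequencing libraries of the study, 4 of PSC and 4 of PP2, and on the 13797 of 22559 genes whose normalized count reached at least 10 in at least 4 of the 16 libraries. The other 8 libraries, 4 of type 1 progenitors (PP1) and 4 of mesenchymal stem cells labelled negative for the reporter (MSC), entered the fit only to estimate the spread. Both Ctsk-cre and the mTmG reporter were carried by every mouse. In such mice the promoter of Ctsk, the gene of the collagen-cleaving protease cathepsin K, drives Cre, and Cre switches a cell and its descendants to membrane GFP, so that the marked cells are those with a history of Ctsk promoter activity, a history that osteoclasts share. The samples came from 1 litter and 1 day and were not pooled. Whether the 4 libraries of a population are 4 animals is not stated, so p-values here speak only of the spread among these libraries, and part of it may be technical. The labels give no surface gates. As these populations were defined in the literature, PSC carry CD200 and lack CD105, while PP2 carry CD105.

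The periosteum is the fibrous and cellular sheath of bone and holds cells that can form bone and cartilage. Growth of long bones runs through a cartilage template in which prehypertrophic chondrocytes secrete Indian hedgehog, and parathyroid hormone-related protein, acting through its receptor, holds chondrocytes back from hypertrophy. Hypertrophic chondrocytes then make type X collagen and mineralize their matrix, and osteoblasts lay down type I collagen in their place.

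A normalized count is the number of reads assigned to a gene divided by 1 size factor per library. Log2 differences are PSC minus PP2 on the log2(normalized count + 1) scale, given with their standard error (SE), and folds are 2 to the power of them. They rest on means of logs, so a fold can differ from the ratio of the group means. For genes with few reads or a library at 0 the fold also depends on the added 1, and it can understate or overstate the change. A gene is called higher or lower where its adjusted p (limma, Benjamini-Hochberg over the 13797 genes) was below 0.05. Group values are means ± SD with n = 4 libraries each, and replicate and library numbers are the same.

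Read depth overlapped between the groups, at 28531622 to 32653563 assigned reads per library in PSC and 24302376 to 41152070 in PP2. The tested genes without any read were 7.06% in an average PSC library and 11.4% in an average PP2 library. PP2 libraries 1 and 3 stood apart, with 13.6% and 16.4% of tested genes at 0, and with the lowest rank correlation of all PP2 pairs, 0.918, against 0.962 between PP2 libraries 2 and 4. They also had the fewest assigned reads in PP2, 28660736 and 24302376, against 41152070 and 37268125 in PP2 libraries 2 and 4. The part of depth in this was not tested. Without PP2 libraries 1 and 3, the number of genes that differed between PSC and PP2, given next, was 3641 in place of 4520. The median rank correlation was 0.963 among PSC libraries, 0.941 among PP2 libraries and 0.893 between the groups. These correlations run across genes, which are not independent replicates.

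Transcripts of proteins tied to the sort are a check on the labels, not a finding. Of these, only Eng has a direction between PSC and PP2 that the gates given above state, and it was lower in PSC. Cd200, a surface glycoprotein, had 6436, 6145, 5064 and 6748 normalized counts in PSC libraries 1 to 4, against 2084, 1865, 2570.2 and 1603 in PP2 libraries 1 to 4. Eng, which encodes CD105, a co-receptor of the transforming growth factor beta family, had 316, 357, 473 and 360.0 normalized counts in PSC libraries 1 to 4, against 5331, 3252, 4839.5 and 5177 in PP2 libraries 1 to 4. Neither gene's libraries overlapped between the groups. Ctsk itself averaged 2751 ± 558 in PSC and 7393 ± 789 in PP2 (2.72-fold lower, adjusted p = 1.05e-07). Thy1, which encodes CD90, averaged 11.3 ± 5.31 in PSC and 77.8 ± 71 in PP2 and Enpep, which encodes aminopeptidase A, 18.1 ± 21.7 in PSC and 172 ± 155 in PP2, and neither passed (adjusted p = 0.414 and 0.119). Ctsk, Prrx1, a limb mesenchyme factor, and Postn, a periosteal matrix protein, had reads in all 8 libraries, and no transcript tested here defines a stem cell as such. Of the integrins used in such sorts, Itgav did not pass (log2 difference -0.14 ± 0.11, adjusted p = 0.373), and Itga6 was 1.55-fold higher (adjusted p = 0.0190), a call lost without PSC replicate 2 (adjusted p = 0.0703) or PP2 replicate 3 (adjusted p = 0.0566).

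PSC and PP2 differed in 4520 of the 13797 genes (32.8%). Of these, 2422 were higher in PSC (17.6% of all tested genes) and 2098 lower (15.2%). Over 2-fold, 1239 genes were higher (8.98%) and 1335 lower (9.68%). The 8 libraries did not overlap between the groups for 28.5% of all tested genes. The median log2 difference over all tested genes was 0.08, with quartiles of -0.54 and 0.72, and the counts and medians of each gene group below are to be read against these values. RNA was measured in bulk, so fewer cells of a type and less RNA per cell cannot be told apart.

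**Figure D1:**
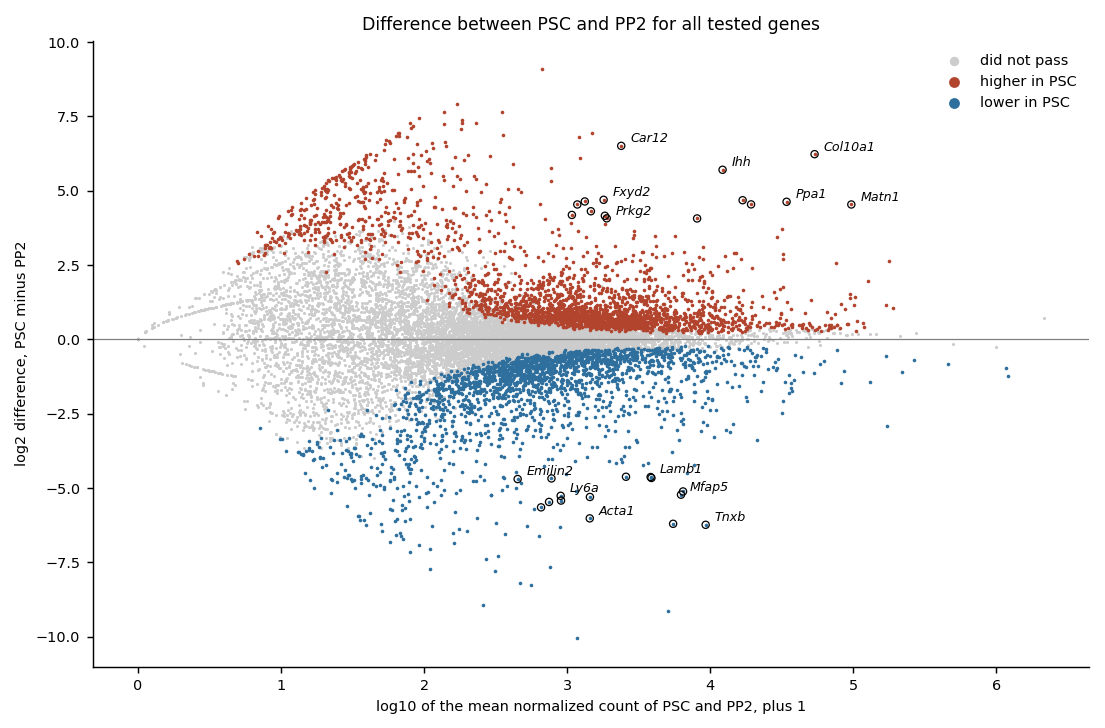
Each point is 1 of the 13797 tested genes, placed by the log10 of its mean normalized count over PSC and PP2 plus 1 (horizontal) and by its log2 difference, PSC minus PP2 (vertical), and coloured by whether it passed the threshold. Circles mark the 15 largest rises and the 15 largest falls among genes with at least 10 normalized counts in all 8 libraries, from Car12 at 6.51 to Tnxb at -6.23.

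The genes with the largest differences included known transcripts of growth plate cartilage, higher in PSC, and of fibroblasts and their matrix, lower in PSC. Among genes with at least 10 normalized counts in all 8 libraries, the largest rise was that of Car12 (ENSMUSG00000032373, 66713686 to 66766845 on chromosome 9 of GRCm38 in the GENCODE M21 annotation), a membrane-bound carbonic anhydrase, which had 4484, 5627, 3964 and 4749 normalized counts in PSC libraries 1 to 4, against 67, 29.7, 39.8 and 79.4 in PP2 libraries 1 to 4. Every PSC library was far above every PP2 library (91.3-fold higher, adjusted p = 1.57e-11). Col10a1, Ihh, Panx3, Epyc and Matn1, all of growth plate cartilage and described further on, were among the same 15 genes. Others were Ppa1, the cytosolic inorganic pyrophosphatase, at 65541 ± 7141 in PSC and 2669 ± 509.5 in PP2 (24.8-fold higher, adjusted p = 3.22e-11), and Slc13a5, a plasma membrane citrate transporter, at 15227 ± 1994 in PSC and 927 ± 246 in PP2 (16.8-fold higher, adjusted p = 1.57e-11). The rest of the 15 were Fxyd2, a regulator of the sodium pump, Prkg2, the type II cGMP-dependent protein kinase, Aldoc, an aldolase, Prss50, Smim5, Ddit4l and Fam89a, which were 16.8-fold to 25.9-fold higher. Aldoc had the largest SE of the 15, with a log2 difference of 4.64 ± 1.21 (adjusted p = 0.00580).

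On the other side, Tnxb (ENSMUSG00000033327, 34670535 to 34719815 on chromosome 17), which encodes the extracellular matrix protein tenascin-X, had 330.3, 216, 93.5 and 417 normalized counts in PSC libraries 1 to 4, against 28972, 13019, 15745 and 15365 in PP2 libraries 1 to 4. Its lowest PP2 library was well above its highest PSC library (75.3-fold lower, adjusted p = 7.70e-11). Acta1, skeletal muscle alpha-actin, averaged 41.8 ± 13 in PSC and 2826 ± 1061 in PP2 (64.8-fold lower, adjusted p = 8.29e-10), and Entpd2, an ectonucleotidase that hydrolyses extracellular ATP, 73.2 ± 30.3 in PSC and 2803 ± 875 in PP2 (39.3-fold lower, adjusted p = 1.62e-10). Cntfr, the binding subunit of the receptor for ciliary neurotrophic factor, averaged 55.3 ± 11.4 in PSC and 1493 ± 609 in PP2 (25.5-fold lower, adjusted p = 3.94e-09). Clec3b, Ly6a, Mfap5, Cd34, Emilin2, Col5a3 and Lamb1 of these 15 are described with their groups. Rab37, a vesicle GTPase, Abca8a, a lipid transporter of the ABC family, and Tppp3, a tubulin-binding protein, were also among them, 24.5-fold to 44.2-fold lower. The fall of Rab37 had a log2 difference of -5.46, and of -6.07 without PSC replicate 3.

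Genes without any read in 1 group were counted against a floor of 3 reads per library, which covers counting error only. Dpp4, a surface dipeptidyl peptidase of fibroblast progenitors, had no read in any PSC library and 209.9, 146, 223 and 293 normalized counts in PP2, at least 67.7-fold lower in PSC. Ly6h, a GPI-anchored protein of the Ly6 family, had no read in PSC and 752, 445, 288 and 572 normalized counts in PP2, at least 159.8-fold lower. In the other direction, Serpina1b and Serpina1d, paralogous serine protease inhibitors whose reads the counting may have divided between them, had no read in PP2. Serpina1b had 452, 231, 53.3 and 609.7 normalized counts in PSC, at least 112-fold higher, and Serpina1d had 321, 252, 42.2 and 468 normalized counts, at least 90.3-fold higher.

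**Figure D2:**
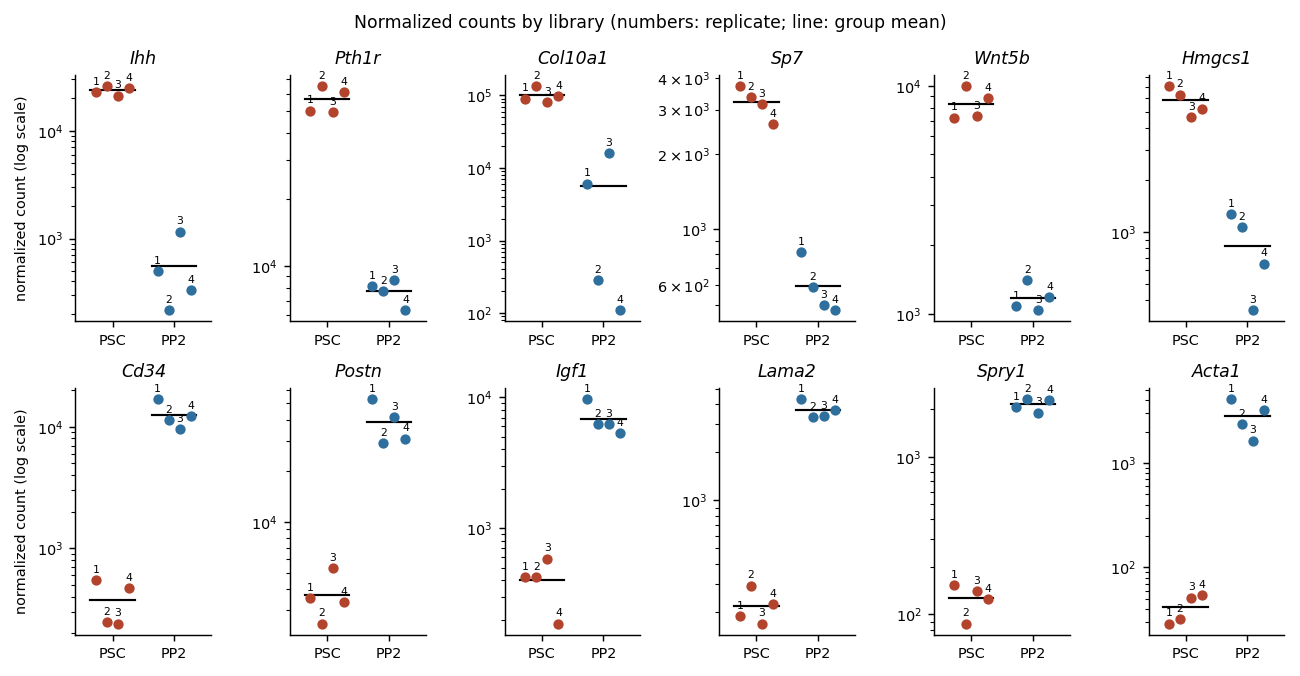
Normalized counts of 12 genes in each library on a log axis, PSC left of PP2 in every panel, with the replicate number above each point and a line at the group mean. The upper 6 genes were higher in all 4 PSC libraries than in any PP2 library and the lower 6 were lower in all 4, and Col10a1 spread most widely among the PP2 libraries.

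Genes of the hedgehog and parathyroid hormone-related protein (PTHrP) axis differed in both directions. The ligand and receptor of growth plate signalling were far higher in PSC, whereas hedgehog co-receptors and Pthlh were lower. Ihh (ENSMUSG00000006538, 74945315 to 74951672 on chromosome 1), the ligand of prehypertrophic chondrocytes, had 22911, 26139, 21191 and 24904 normalized counts in PSC libraries 1 to 4, against 502, 216, 1159 and 333 in PP2 libraries 1 to 4. Pth1r (ENSMUSG00000032492, 110722085 to 110747145 on chromosome 9), the receptor for parathyroid hormone and PTHrP, had 50355, 65112, 49605 and 60962 normalized counts in PSC libraries 1 to 4, against 8156, 7701, 8665 and 6329 in PP2 libraries 1 to 4. For both genes the lowest PSC library lay above the highest PP2 library, by a wide margin. The log2 differences between the groups were 5.71 ± 0.34 for Ihh and 2.87 ± 0.14 for Pth1r. By the counts above, the PP2 libraries differed more among themselves in Ihh than in Pth1r.

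Pthlh, which encodes PTHrP itself, averaged 214 ± 118 in PSC and 566 ± 107 in PP2 (3.01-fold lower, adjusted p = 0.00249). Ptch1, the hedgehog receptor that hedgehog signalling also induces, was 1.86-fold higher in PSC (adjusted p = 0.00358). Gli1, the target most often read as a measure of pathway activity, did not pass (log2 difference -0.61 ± 0.31, adjusted p = 0.143), and neither did Gli2 or Gli3 (adjusted p = 0.291 and 0.942). The co-receptors Gas1, Boc and Cdon, which help patched bind its ligand, were 8.49-fold lower, 3.16-fold lower and 1.87-fold lower. Gas1 averaged 1846 ± 414 in PSC and 15368 ± 631 in PP2 (adjusted p = 1.57e-11). The decoy receptor Hhip was also 3.1-fold lower, and the transducer Smo 1.48-fold lower. In all, 4 of 15 tested genes of the axis were higher and 8 lower, with a median log2 difference of -0.59.

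Most cartilage matrix transcripts were higher in PSC. Of 19 tested genes, 16 were higher and 1 lower, with a median log2 difference of 1.39, and together they took 12.4% to 19.5% of the normalized total in PSC and 6.87% to 8.44% in PP2. Hapln1, which links aggrecan to hyaluronan, had 309552, 350515, 275416 and 297419 normalized counts in PSC libraries 1 to 4, against 52679, 45581, 50841 and 47379 in PP2 libraries 1 to 4. Matn1, a matrilin that bridges collagen fibrils and proteoglycans, averaged 185135 ± 87382 in PSC and 8217 ± 4061 in PP2 (23.3-fold higher, adjusted p = 2.40e-08). Another matrilin, Matn3, averaged 203106 ± 14893 in PSC and 51649.7 ± 5577 in PP2 (3.94-fold higher, adjusted p = 8.13e-11). Epyc, a small proteoglycan of growth plate cartilage, averaged 36901 ± 8687 in PSC and 1599.9 ± 437 in PP2 (23.3-fold higher, adjusted p = 8.65e-11). The differences in aggrecan (Acan, 2.62-fold higher), type IX collagen (Col9a1 2.25-fold higher, Col9a2 2.71-fold higher, Col9a3 2.86-fold higher) and type XI collagen (Col11a1 2.25-fold higher, Col11a2 2.29-fold higher) were smaller than those of Hapln1, Matn1 and Epyc. Col27a1, a fibrillar collagen of cartilage, was 4.02-fold higher and Comp, a pentameric matrix protein, 2.07-fold higher.

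Type II collagen, the main collagen of cartilage, did not pass. Col2a1 had 3756738, 2636663, 2404087 and 1990613 normalized counts in PSC libraries 1 to 4, against 1657810.0, 1370298, 1832409.5 and 1566600.1 in PP2 libraries 1 to 4. All 4 PSC libraries were above all 4 PP2 libraries, but the difference (0.72 ± 0.34 on the log2 scale) missed the threshold (adjusted p = 0.122). With edgeR on the recovered reads and TMM factors it passed (adjusted p = 0.00170), as it did with DESeq2 (adjusted p = 2.37e-05). Col10a1 (ENSMUSG00000039462, 34389981 to 34397085 on chromosome 10), the collagen that marks hypertrophic chondrocytes, had 90027, 135818, 81038 and 98898 normalized counts in PSC libraries 1 to 4, against 6088, 286, 15867 and 109 in PP2 libraries 1 to 4. All PSC libraries were above all PP2 libraries, and PP2 libraries 1 and 3 were far above PP2 libraries 2 and 4, so the fold of 75.2 (adjusted p = 1.79e-04) depended on them. Its log2 difference of 6.23 was 7.43 without PP2 replicate 3 and 5.04 without PP2 replicate 4, 6.97 without PP2 replicate 1 and 5.50 without PP2 replicate 2. The matrilin Matn4 was lower in PSC (1.57-fold lower, adjusted p = 0.00466), and Ucma, a cartilage protein rich in gamma-carboxyglutamate, did not pass (log2 difference -0.26 ± 0.15).

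Cartilage proteoglycans carry sulfated glycosaminoglycans, mainly chondroitin sulfate. Of 25 tested genes of their synthesis, 12 were higher and 5 lower (median 0.56). The sulfate transporter Slc26a2 averaged 7064 ± 269 in PSC and 2153 ± 408 in PP2 (3.32-fold higher, adjusted p = 9.68e-10), Papss2, which makes the activated sulfate donor, was 2.99-fold higher, and the chondroitin 4-O-sulfotransferase Chst11 was 4.26-fold higher (adjusted p = 1.08e-09). Xylt1, which starts the chain on the core protein, Chsy1, which extends chondroitin, and Ugdh, which makes the glucuronic acid donor, were 3.49-fold higher, 3.72-fold higher and 2.95-fold higher. Among the genes that were lower were Ext1 (2.05-fold lower), which extends heparan sulfate, and Ndst1 (1.76-fold lower), which sulfates it. The count of lower genes was 3 without PSC replicate 1 or without PP2 replicate 4.

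Like Col10a1, the genes Ihh, Matn1, Prkg2, Fxyd2, Phex and Aldoc were each higher in PP2 libraries 1 and 3 than in PP2 libraries 2 and 4. Matn1, for example, had 12344, 5166, 11036 and 4321 normalized counts in PP2 libraries 1 to 4. Without PP2 libraries 1 and 3 the log2 difference of Ihh was 6.46 in place of 5.71, that of Matn1 5.19 in place of 4.54, and that of Phex 3.68 in place of 3.07. Car12, Epyc, Mef2c and Panx3 did not show this order, and Panx3 had 1107, 1142, 2569 and 743 normalized counts in PP2 libraries 1 to 4. These genes were singled out after their values were seen. Dmp1 showed the reverse, with 50.6, 307, 129.9 and 489 normalized counts.

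Mineralization genes were higher in PSC for 14 of the 17 members tested and lower for 1, with a median log2 difference of 2.92. Alpl, the alkaline phosphatase that releases phosphate for mineral, had 14529.7, 18866, 13790.0 and 14438 normalized counts in PSC libraries 1 to 4, against 2359, 2590.2, 2249 and 2234 in PP2 libraries 1 to 4. Smpd3, a sphingomyelinase needed for mineralization, averaged 53235 ± 11252 in PSC and 4872 ± 1129 in PP2 (11-fold higher, adjusted p = 1.57e-11), and Panx3, a channel protein of hypertrophic chondrocytes and osteoblasts, 32214 ± 3601 in PSC and 1390.0 ± 806 in PP2 (25.7-fold higher, adjusted p = 9.41e-11). For each of the 3 genes, all PSC libraries were above all PP2 libraries. Phex, an endopeptidase of phosphate balance, was 8.39-fold higher and Ifitm5, an osteoblast membrane protein, 7.82-fold higher. Bglap, which encodes osteocalcin, averaged 1273 ± 536 in PSC and 188 ± 124 in PP2 (7.55-fold higher, adjusted p = 1.64e-05). The mineral-binding matrix proteins Spp1 and Ibsp were 2.48-fold higher and 2.28-fold higher (adjusted p = 7.15e-04 and 0.0102). Enpp1, which makes the mineralization inhibitor pyrophosphate, was 1.42-fold lower (adjusted p = 0.0142), a call lost without PP2 replicate 4 (adjusted p = 0.0566).

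Of 11 tested markers of mature osteoblasts and osteocytes, the cells buried in bone, 8 were higher in PSC and 2, Col1a1 and Pdpn, lower. Some of the 11, such as Phex, Ifitm5 and Bglap, are also among the mineralization genes above, so the counts of these lists are not independent. The summed level of the osteoblast and osteocyte list went the other way from its count of genes, with 511342 to 1118349 normalized counts in PSC and 1322911 to 1935527 in PP2, without overlap. Nearly all of that sum was Col1a1, the type I collagen gene that other cells of bone and fibrous tissue also express (807272 ± 266218 in PSC and 1535658 ± 278420.2 in PP2). Dmp1, a phosphoprotein of bone matrix, averaged 1349.7 ± 528 in PSC and 244 ± 195 in PP2 (7.08-fold higher, adjusted p = 1.70e-04), with a log2 difference of 2.82 that was 2.23 without PP2 replicate 1. Mepe, a phosphoprotein of osteocytes, had 379, 43.2, 78.4 and 299.6 normalized counts in PSC libraries 1 to 4, against 0, 0, 0 and 8.36 in PP2 libraries 1 to 4. It was read in all 4 PSC libraries and in only 1 PP2 library, so its log2 difference of 6.34 (adjusted p = 0.00160) depended on the pseudocount and was 7.15 without PP2 replicate 4. Sost, the sclerostin gene of mature osteocytes, averaged 74.6 ± 82.3 in PSC and 0.55 ± 1.1 in PP2, and its call (adjusted p = 0.0374) did not hold in 5 of the 8 refits with a single library removed (highest adjusted p = 0.127). Its log2 difference of 4.00 was 3.02 without PSC replicate 3, 3.13 without PSC replicate 4 and 5.47 without PSC replicate 2. Pdpn, a glycoprotein of early osteocytes and of fibroblasts, was 4.02-fold lower (adjusted p = 4.78e-07).

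Transcription factors differed by the tissue they are known from. Of 25 tested factors of chondrocytes and osteoblasts, 13 were higher in PSC and 1 lower (median 0.72). Sp7, which encodes the osteoblast factor osterix, had 3734, 3353, 3162 and 2617 normalized counts in PSC libraries 1 to 4, against 810.0, 586, 499.7 and 476 in PP2 libraries 1 to 4. Sox9, the main chondrocyte factor, had 16482, 9989, 10698 and 7356 normalized counts in PSC libraries 1 to 4, against 3414, 2327, 2466 and 2680.2 in PP2 libraries 1 to 4. In both genes each PSC library was above each PP2 library (5.5-fold higher, adjusted p = 1.97e-07, and 3.96-fold higher, adjusted p = 7.52e-07). Mef2c, a factor of chondrocyte hypertrophy, averaged 6191 ± 1096 in PSC and 1229 ± 317 in PP2 (5.09-fold higher, adjusted p = 3.01e-09), and the forkhead factors Foxa2 and Foxa3, which act in hypertrophic chondrocytes, were 6.23-fold higher and 10.9-fold higher. Runx2, needed for osteoblasts and for hypertrophy, was 2.12-fold higher and the homeobox factor Dlx5 3.77-fold higher. The Sox9 partners Sox5 and Sox6 did not pass (adjusted p = 0.731 and 0.0847). Zfp521, an antagonist of Runx2, was lower (2.3-fold lower, adjusted p = 0.00171).

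Factors of limb mesenchyme and connective tissue went the other way, with 19 of 41 lower in PSC and 5 higher (median -0.66). Osr2, a zinc finger factor of irregular connective tissue, had 176, 94.5, 191 and 131 normalized counts in PSC libraries 1 to 4, against 1526, 1059, 1398 and 1314 in PP2 libraries 1 to 4, with no overlap between the groups (9.12-fold lower, adjusted p = 2.32e-09). Prrx1, a paired-type homeobox factor, averaged 1487 ± 730.1 in PSC and 4527 ± 672 in PP2 (3.27-fold lower, adjusted p = 4.16e-06), and its relative Prrx2 372 ± 163 in PSC and 1677 ± 354 in PP2 (4.94-fold lower, adjusted p = 6.27e-06). The early B cell factors Ebf1 and Ebf3, which also act in stromal cells, were 2.92-fold lower and 5.0-fold lower, the basic helix-loop-helix factors Twist1 and Twist2 2.3-fold lower and 11-fold lower, and the T-box factors Tbx4 and Tbx18 4.54-fold lower and 4.12-fold lower. Snai1, Klf2 and Klf4 were higher in PSC, by 4.68-fold, 3.93-fold and 2.87-fold. The count of 5 higher factors was 3 with DESeq2 or edgeR. Of 28 tested Hox genes, 3 were higher and 3 lower.

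Fibrous matrix was lower in PSC in nearly every gene of the group. Of 18 tested collagens of fibrils and their surfaces, 17 were lower and none higher, with a median log2 difference of -1.59. This list leaves out the fibrillar collagens counted with cartilage above. Of those, Col11a1, Col11a2 and Col27a1 were higher in PSC and Col2a1 did not pass. Col3a1, the type III collagen of soft connective tissue, had 37501, 29918, 60879.8 and 37481 normalized counts in PSC libraries 1 to 4, against 343999, 245326, 352331 and 276848 in PP2 libraries 1 to 4. The groups did not overlap (7.53-fold lower, adjusted p = 4.65e-09). Col14a1 averaged 2024 ± 799.6 in PSC and 19182 ± 3928 in PP2 (9.81-fold lower, adjusted p = 2.10e-09) and Col5a3 344 ± 223 in PSC and 7401 ± 2029 in PP2 (25.2-fold lower, adjusted p = 2.97e-09). Type VI collagen, a network around cells, was lower in Col6a1, Col6a2 and Col6a3 (2.11-fold lower, 2.74-fold lower and 2.13-fold lower). Type I collagen, of bone and fibrous tissue alike, was nearer the threshold. Col1a2 was 2.33-fold lower (adjusted p = 0.00523), and Col1a1 averaged 807272 ± 266218 in PSC and 1535658 ± 278420.2 in PP2 (1.96-fold lower, adjusted p = 0.0311), a call lost without PSC replicate 1 (adjusted p = 0.120), PSC replicate 2 (0.0834), PP2 replicate 3 (0.0722) or PP2 replicate 4 (0.0614).

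Elastic fibres and microfibrils showed the same direction, with 16 of 20 tested genes lower and 1 higher (median -2.07). Fbn1, which encodes the microfibril protein fibrillin-1, averaged 2266 ± 597 in PSC and 15473 ± 3295 in PP2 (6.86-fold lower, adjusted p = 9.28e-10), elastin (Eln) 7645 ± 5003 in PSC and 28408 ± 8758 in PP2 (4.2-fold lower, adjusted p = 9.22e-05) and the microfibril protein Mfap5 341 ± 149 in PSC and 12124 ± 4031 in PP2 (37.3-fold lower, adjusted p = 4.35e-10). The fibulins Fbln1, Fbln2 and Fbln5 were 5.46-fold lower, 10.3-fold lower and 5.3-fold lower, and Emilin2 25.9-fold lower. Lox and Loxl2, which cross-link collagen and elastin, did not pass (adjusted p = 0.899 and 0.122), whereas Loxl1, needed for elastic fibres, was 4.18-fold lower. The member that was higher was Efemp2 (1.76-fold higher, adjusted p = 5.98e-05).

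Postn, the periosteum-enriched matrix protein periostin, had 3554, 2511, 5323 and 3354 normalized counts in PSC libraries 1 to 4, against 52840.1, 28923, 41261 and 30926 in PP2 libraries 1 to 4. All PSC libraries lay below all PP2 libraries (10.5-fold lower, adjusted p = 1.37e-09). Of 19 tested matricellular proteins, which bind matrix and receptors, 10 were lower and 5 higher. Thbs4 (22.3-fold lower), Nov (7.41-fold lower) and Thbs2 (3.3-fold lower) were lower, while Cyr61 and Ctgf were 3.01-fold higher and 1.81-fold higher. Small leucine-rich proteoglycans were lower for 8 of the 13 members tested and higher in 2, led by the falls of Aspn (8.74-fold lower), Kera (12.3-fold lower) and Ogn (4.09-fold lower). Lum and Prelp of this family did not pass (adjusted p = 0.653 and 0.945).

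Basement membrane genes were lower for 9 of the 17 members tested and higher in 1. Lama2, the laminin chain typical of muscle and nerve, had 189, 292, 169 and 224 normalized counts in PSC libraries 1 to 4, against 4308, 3308, 3383 and 3677 in PP2 libraries 1 to 4. Of its usual partner chains, Lamb1 averaged 299 ± 81.9 in PSC and 7346 ± 1938 in PP2 (24.7-fold lower, adjusted p = 1.41e-11) and Lamc1 1587 ± 289 in PSC and 11344 ± 1469 in PP2 (7.18-fold lower, adjusted p = 1.41e-11). The type IV collagen chains Col4a1 and Col4a2 were 10.4-fold lower and 4.79-fold lower, and the linker Nid1 8.32-fold lower (adjusted p = 9.41e-11). All these genes separated the groups without overlap. Nid2, the second nidogen, was higher (1.96-fold higher, adjusted p = 9.83e-07), and the perlecan gene Hspg2, which cartilage also expresses, did not pass (log2 difference 0.34 ± 0.19).

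Markers of fibroblasts and adventitial progenitors were lower in PSC for 18 of the 20 members tested and higher in none, with a median log2 difference of -3.19. Cd34 (ENSMUSG00000016494, 194938819 to 194961279 on chromosome 1), a surface sialomucin of progenitor and endothelial cells, had 546, 247, 241 and 475 normalized counts in PSC libraries 1 to 4, against 16871, 11396, 9525 and 12223 in PP2 libraries 1 to 4. Ly6a, which encodes the progenitor antigen Sca-1, had 54.7, 91.5, 39.2 and 18.6 normalized counts in PSC libraries 1 to 4, against 2295, 1667, 1508 and 1507 in PP2 libraries 1 to 4. Clec3b, which encodes tetranectin, averaged 154 ± 59.9 in PSC and 10826 ± 3333 in PP2 (73.5-fold lower, adjusted p = 1.57e-11). In the 3 genes each PSC library was far below each PP2 library. The platelet-derived growth factor receptor Pdgfra averaged 1071 ± 454 in PSC and 7938 ± 1672 in PP2 (7.71-fold lower, adjusted p = 2.50e-09). Its relative Pdgfrb averaged 1424 ± 423 in PSC and 4379 ± 603 in PP2 (3.14-fold lower, adjusted p = 3.94e-07). Of 21 tested genes of platelet-derived and vascular endothelial growth factors and their receptors, 9 were lower and 2 higher. Dpt, which encodes dermatopontin, averaged 33.6 ± 23.9 in PSC and 10083 ± 3201 in PP2, with a log2 difference of -9.13 that was -7.76 without PSC replicate 1. Ackr3 and C3 did not pass (adjusted p = 0.328 and 0.202).

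Genes of tendons and ligaments were lower for 9 of the 12 members tested and higher in 1. Tnmd, a membrane glycoprotein of tendon cells, averaged 4126 ± 1181 in PSC and 16319.8 ± 2830.0 in PP2 (4.03-fold lower, adjusted p = 4.34e-07), Cilp 417 ± 286 in PSC and 6344 ± 690.5 in PP2 (18.9-fold lower, adjusted p = 9.29e-08) and Scx, the tendon transcription factor scleraxis, 387 ± 108 in PSC and 949.6 ± 223 in PP2 (2.49-fold lower, adjusted p = 2.38e-04). Mkx, another tendon factor, did not pass (adjusted p = 0.109). The member that was higher, Egr2, is also an immediate early gene. Genes of the articular surface were lower for 8 of the 10 members tested and higher in 1. Among the lower ones was Prg4, the joint lubricant lubricin, at 1772 ± 433 in PSC and 10726 ± 4926 in PP2 (5.58-fold lower, adjusted p = 5.27e-06). This list also holds Cilp, and Dkk3 of the Wnt antagonists below, so the counts of these lists are not independent.

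Matrix proteases and their inhibitors were lower in PSC for 21 of the 39 members tested and higher in 4 (median -1.19). The membrane-bound collagenase Mmp14 averaged 5902 ± 1325 in PSC and 16429.5 ± 1887 in PP2 (2.82-fold lower, adjusted p = 8.64e-08), the gelatinase Mmp2 19096 ± 3132 in PSC and 35953 ± 3993 in PP2 (1.89-fold lower, adjusted p = 3.37e-05) and the aggrecanase Adamts5 88.4 ± 26.6 in PSC and 762 ± 98.6 in PP2 (8.73-fold lower, adjusted p = 7.98e-08). Adamts2, which removes the N-propeptide of procollagens, was 3.33-fold lower, while Adamts3, which also cleaves procollagen, was 2.87-fold higher (adjusted p = 1.30e-05). Mmp13 and Mmp9, the collagenase and gelatinase of growth plate turnover, did not pass (adjusted p = 0.194 and 0.639). The count of higher genes was 2 without PP2 replicate 3. Of 20 tested integrins, 8 were lower and 3 higher, the lower ones including Itgb1 (1.46-fold lower), Itga5 (2.28-fold lower) and the collagen-binding Itga11 (2.57-fold lower), and the other collagen receptor Itga1 was 2.6-fold higher. Of 32 other adhesion genes, 11 were lower and 7 higher. Cdh11, the mesenchymal cadherin, was 3.35-fold lower, and Cd44, the hyaluronan receptor, 4.04-fold lower. Cathepsins and other lysosomal genes were lower for 8 of the 20 members tested and higher in 4.

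**Figure D3:**
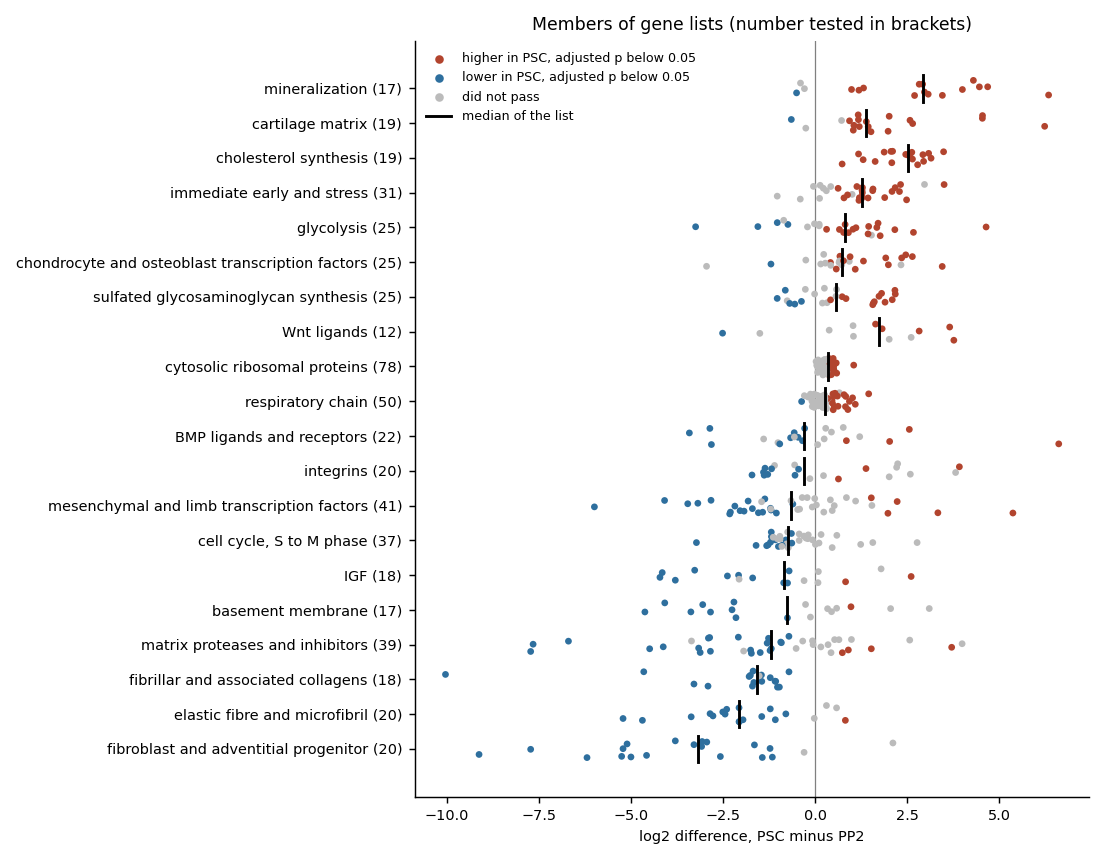
Log2 differences, PSC minus PP2, of all tested members of 20 gene lists, 1 row per list, red where higher and blue where lower in PSC with an adjusted p below 0.05 and grey otherwise, with a bar at each list's median. Cholesterol synthesis had all 19 members higher. Fibrillar and associated collagens, a list without Col2a1, Col11a1, Col11a2 and Col27a1 of cartilage, had 17 of 18 lower.

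Among Wnt ligands most called genes were higher in PSC, and among Wnt antagonists most were lower. Of 12 tested ligands 5 were higher in PSC and 1 lower (median 1.73). Wnt5b, a ligand of growth plate chondrocytes, had 7251, 10007, 7365 and 8831 normalized counts in PSC libraries 1 to 4, against 1085, 1407, 1037 and 1186 in PP2 libraries 1 to 4. Wnt4 averaged 2191 ± 271 in PSC and 194 ± 119 in PP2 (12.6-fold higher, adjusted p = 2.97e-08), Wnt11 2542 ± 562 in PSC and 731 ± 199 in PP2 (3.52-fold higher, adjusted p = 1.36e-05) and Wnt5a 3252 ± 402 in PSC and 1047 ± 145 in PP2 (3.11-fold higher, adjusted p = 2.54e-06). No PP2 library of Wnt5b reached the lowest PSC library. Wnt9a, of joints, was 5.72-fold lower (adjusted p = 1.26e-04). Of 13 antagonists, 6 were lower, among them Dkk3 (5.0-fold lower), Sfrp4 (4.59-fold lower) and Wif1 (2.55-fold lower), and 3 higher, among them Frzb (2.05-fold higher), which is made by chondrocytes. Of 31 tested receptors and targets, 5 were higher and 9 lower. The receptors Fzd2 and Fzd8 were 2.53-fold lower and 2.68-fold lower, and the co-receptor Lrp5 2.2-fold lower. Rspo3, a secreted enhancer of Wnt signalling, was 6.55-fold higher (adjusted p = 1.77e-05). The feedback target Axin2 did not pass (log2 difference 0.92 ± 0.65, adjusted p = 0.308).

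Bone morphogenetic protein (BMP) genes differed in both directions. Bmp2 and Bmp6, ligands of hypertrophic cartilage, averaged 3151 ± 1005 in PSC and 754 ± 112 in PP2 (4.06-fold higher, adjusted p = 4.26e-07) and 2794 ± 507 in PSC and 551 ± 377 in PP2 (5.88-fold higher, adjusted p = 7.20e-06), whereas Bmp4 averaged 276 ± 141 in PSC and 1804 ± 456 in PP2 (7.06-fold lower, adjusted p = 2.81e-07). Acvrl1, a type I receptor that works with the CD105 protein, was 7.27-fold lower (adjusted p = 1.32e-08). Over ligands and receptors, 4 of 22 were higher and 9 lower, and the count of lower genes was 4 with edgeR and TMM factors. Of 20 antagonists and targets, 7 were higher and 6 lower. Nog (noggin), an antagonist, was higher at 2199 ± 661 in PSC and 370.1 ± 296 in PP2 (6.92-fold higher, adjusted p = 2.00e-06), and the antagonists Nbl1, Fstl1, Chrd and Fst were lower, with folds of 3.09 to 8.23. The BMP targets Id1 and Smad7 were 2.45-fold higher and 3.18-fold higher, and Id2 and Id3 did not pass (adjusted p = 0.759 and 0.962). In the transforming growth factor beta pathway, 4 of 15 genes were higher and 8 lower. The ligand Tgfb1 was 2.06-fold higher and Tgfb3 1.7-fold lower, and the receptors Tgfbr2 and Tgfbr3 were 2.25-fold lower and 3.54-fold lower.

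Of 17 tested fibroblast growth factor (FGF) ligands and receptors, 1 was higher in PSC and 4 lower. Fgfr3, the receptor of growth plate chondrocytes, had 15887, 15778, 11472 and 15439.6 normalized counts in PSC libraries 1 to 4, against 1863, 2361, 2366 and 1917 in PP2 libraries 1 to 4, with no overlap (6.87-fold higher, adjusted p = 1.57e-11). Fgfr1 and Fgfr2 were 1.52-fold lower and 1.82-fold lower (adjusted p = 0.00274 and 7.71e-04). Spry1, a feedback inhibitor that FGF signalling induces, had 154, 87.5, 141 and 125 normalized counts in PSC libraries 1 to 4, against 2073, 2323, 1903 and 2287 in PP2 libraries 1 to 4. Its highest PSC library was far below its lowest PP2 library (17.1-fold lower, adjusted p = 3.97e-11). The feedback genes Spry2 and Dusp6 were 1.97-fold lower and 1.77-fold lower, and 6 of 13 genes of ERK feedback were lower in all, with 1 higher.

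The insulin-like growth factor (IGF) group was lower in PSC for 11 of the 18 members tested and higher in 2. Igf1 had 424, 423, 586 and 187 normalized counts in PSC libraries 1 to 4, against 9698, 6236, 6258 and 5323 in PP2 libraries 1 to 4, with all PSC libraries below all PP2 libraries (17.8-fold lower, adjusted p = 7.83e-09). Igf2, the fetal growth factor, averaged 331131 ± 56102 in PSC and 587347 ± 55599 in PP2 (1.79-fold lower, adjusted p = 0.00194). The binding proteins Igfbp3, Igfbp4, Igfbp5 and Igfbp6 were lower, from 4.24-fold for Igfbp4 to 18.6-fold for Igfbp3. The receptor Igf1r did not pass (log2 difference 0.08 ± 0.34). Stc2, a stanniocalcin that inhibits the protease freeing IGF from its binding proteins, was 6.08-fold higher (adjusted p = 3.54e-07).

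**Figure D4:**
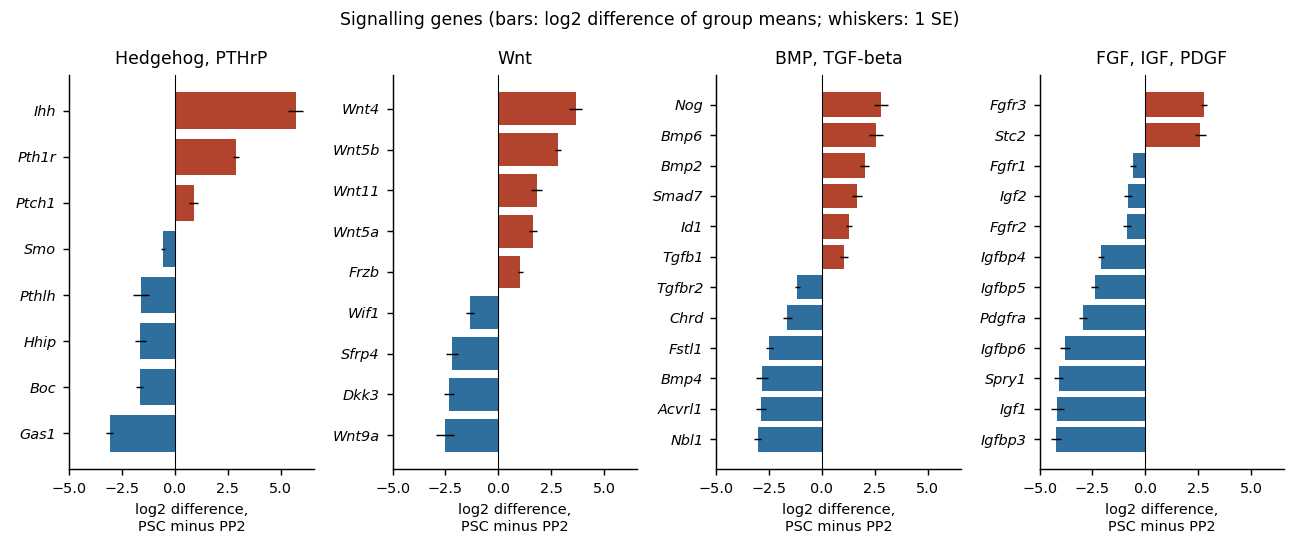
Log2 differences, PSC minus PP2, of signalling genes named in the text, with whiskers of 1 SE, red where higher and blue where lower in PSC. Ligands and receptors of growth plate signalling (Ihh, Pth1r, Wnt5b, Bmp6, Fgfr3) lie to the right of 0, and Igf1, Igfbp3, Spry1 and Bmp4 to the left.

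Notch and axon guidance genes differed in both directions, with 3 of 19 and 6 of 42 higher and 4 and 12 lower. Their median log2 differences were 0.55 and -0.49, and the Notch median was -0.25 without PP2 libraries 1 and 3. Dlk1, a non-canonical Notch ligand of progenitors, averaged 70112 ± 9272 in PSC and 189990.5 ± 11160.3 in PP2 (2.73-fold lower, adjusted p = 7.67e-08), and Notch3, the receptor of mural cells, was 5.03-fold lower. The netrin Ntn1 was 5.84-fold lower while its receptor Unc5b was 5.34-fold higher (adjusted p = 6.26e-10 and 5.55e-10). The secreted semaphorins Sema3c and Sema3f were 4.25-fold lower and 5.07-fold lower, and Sema3d was 2.28-fold higher.

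Natriuretic peptide signalling, which promotes growth plate expansion through cGMP, was higher in 2 of 9 genes and lower in 3. Prkg2 had 3881, 4106, 2750.4 and 3409.9 normalized counts in PSC libraries 1 to 4, against 342, 115, 343 and 135 in PP2 libraries 1 to 4, with no overlap (16.8-fold higher, adjusted p = 3.63e-08), and Prkg1 was 3.21-fold higher (adjusted p = 5.76e-07). The receptor Npr2 did not pass (log2 difference -0.33 ± 0.18), and Npr1 was 12-fold lower (adjusted p = 2.15e-05). Of 14 receptors for hormones and vitamins, 4 were higher and 3 lower. Vdr, for vitamin D, was 3.03-fold higher and Thra, for thyroid hormone, 1.72-fold lower. Retinoid genes were lower for 11 of the 19 members tested and higher in 2, including the receptor Rara (2.52-fold lower) and the retinol-oxidising Adh1 (7.27-fold lower).

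All 19 tested genes of cholesterol synthesis were higher in PSC, with a median log2 difference of 2.52, where 17.6% of all tested genes were higher. Their summed level was 56505 to 82569 normalized counts in PSC and 11658 to 15749 in PP2. Hmgcs1, which condenses acetyl units at the start of the mevalonate pathway, had 7072, 6276, 4669 and 5215 normalized counts in PSC libraries 1 to 4, against 1265, 1060.5, 349.9 and 654 in PP2 libraries 1 to 4. Its lowest PSC library lay above its highest PP2 library (7.69-fold higher, adjusted p = 1.40e-07). Fdps, which makes farnesyl diphosphate, averaged 9562 ± 1927 in PSC and 1248 ± 179 in PP2 (7.59-fold higher, adjusted p = 1.71e-10). In the steps after squalene, Sqle, Lss and Cyp51 were 6.24-fold higher, 8.46-fold higher and 4.29-fold higher, and the methylsterol oxidase, given under its older symbol Sc4mol (now Msmo1), averaged 10350.4 ± 2421 in PSC and 924 ± 225 in PP2 (11.2-fold higher, adjusted p = 5.51e-10). Ebp had the lowest log2 difference of the list (0.73 ± 0.19, adjusted p = 0.00543).

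Genes of sterol uptake and control went the same way for 10 of the 19 members tested, with 1 lower. Insig1, the sterol-sensing anchor of the pathway's regulator and itself one of its targets, averaged 16975 ± 3089 in PSC and 3718 ± 559.6 in PP2 (4.54-fold higher, adjusted p = 4.30e-09). Srebf2, which encodes that regulator, SREBP2, was 1.66-fold higher (adjusted p = 3.32e-06). Its sterol-sensing escort Scap and the efflux pump Abca1 did not pass (adjusted p = 0.493 and 0.539). Of 17 fatty acid synthesis genes, 6 were higher and 1 lower, led by the desaturases Scd1 (11627 ± 1692 in PSC and 1931 ± 186 in PP2, 6.0-fold higher) and Scd2 (5.24-fold higher).

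SREBP2 acts at promoters together with the factor NF-Y, so the promoters of the cholesterol genes were read. Windows of RefSeq (GRCm38.p6) were found for 14 of the 19 genes, and the 250 bases before each annotated start were searched on both strands. The NF-Y box, CCAAT, was in at least 1 window of 14 of 14 genes, against 40.5% of the 10250 tested genes with a window. It occurred 2 or more times in 1 window in 9 of them, against 14.7% of tested genes. The sterol regulatory element searched, TCACNCCAC, was in 1 of them, Hmgcs1, 137 bases before the start, and in 1.27% of tested genes. Other lists were searched in the same way. The NF-Y box was in 7 of 13 genes of sterol uptake and control and 9 of 14 of fatty acid synthesis. It was in 14 of 25 immediate early and stress genes and 9 of 24 glycolytic genes. The sterol element was in 0, 1, 0 and 2 genes of these lists. A match describes the letters only, and was not tested as a binding site. The 4 promoters below are those of an early enzyme (Hmgcs1), of Idi1, which isomerises the isoprenoid unit, and of 2 enzymes of the last sterol steps with large differences (Msmo1, and Hsd17b7, which was 8.85-fold higher). Capitals mark NF-Y boxes on either strand (CCAAT or ATTGG) and, in Hmgcs1, the sterol element, and each runs 5′ to 3′ on the strand of the gene.
Hmgcs1, chr13:119690101-119690350 (plus strand): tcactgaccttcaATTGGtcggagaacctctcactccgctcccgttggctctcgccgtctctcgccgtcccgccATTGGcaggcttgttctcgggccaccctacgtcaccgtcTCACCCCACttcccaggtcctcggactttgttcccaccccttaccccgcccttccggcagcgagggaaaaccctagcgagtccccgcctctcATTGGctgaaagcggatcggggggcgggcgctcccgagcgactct
Idi1, chr13:8885356-8885605 (plus strand): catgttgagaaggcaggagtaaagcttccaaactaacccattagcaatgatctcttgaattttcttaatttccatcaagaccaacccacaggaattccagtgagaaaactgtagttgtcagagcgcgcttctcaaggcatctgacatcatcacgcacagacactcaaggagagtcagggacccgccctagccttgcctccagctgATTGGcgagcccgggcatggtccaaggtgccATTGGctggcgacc
Msmo1, chr8:64733579-64733828 (minus strand): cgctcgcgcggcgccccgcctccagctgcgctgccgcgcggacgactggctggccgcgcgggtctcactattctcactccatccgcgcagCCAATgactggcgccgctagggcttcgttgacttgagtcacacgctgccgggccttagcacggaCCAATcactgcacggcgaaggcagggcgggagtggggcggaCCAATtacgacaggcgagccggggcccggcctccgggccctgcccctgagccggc
Hsd17b7, chr1:169969206-169969455 (minus strand): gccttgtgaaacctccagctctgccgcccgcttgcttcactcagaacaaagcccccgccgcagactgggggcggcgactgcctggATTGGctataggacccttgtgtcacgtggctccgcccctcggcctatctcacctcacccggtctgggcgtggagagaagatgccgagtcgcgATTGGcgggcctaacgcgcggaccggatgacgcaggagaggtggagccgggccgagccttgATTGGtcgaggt
The box nearest to the start lay 45, 14, 55 and 12 bases before it in Hmgcs1, Idi1, Msmo1 and Hsd17b7, which hold 3, 2, 3 and 3 boxes.

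Glycolytic transcripts were higher in PSC for 15 of the 25 members tested and lower in 4 (median 0.81). Ldha, lactate dehydrogenase, had 52645, 56449.5, 39294 and 51218 normalized counts in PSC libraries 1 to 4, against 14123, 13463, 16650.1 and 14189 in PP2 libraries 1 to 4. The glucose transporter Slc2a1 had 4287, 5687, 5367 and 6730.3 normalized counts in PSC libraries 1 to 4, against 497, 674, 1414 and 1136 in PP2 libraries 1 to 4. Neither gene overlapped between the groups (3.4-fold higher, adjusted p = 1.13e-08, and 6.36-fold higher, adjusted p = 1.39e-07). Pgk1 (3.19-fold higher), Tpi1 (2.73-fold higher), Pgam1 (2.7-fold higher) and the phosphofructokinase Pfkl (4.48-fold higher), enzymes of the pathway, and Slc16a3 (3.27-fold higher), which exports lactate, were among the others. Hk1 and Gpi1 did not pass (adjusted p = 0.944 and 0.380). The 4 lower genes, Eno2, Eno3, Slc2a3 and Pfkp, had adjusted p from 0.0153 to 0.0402, and their number was 1 without PSC replicate 2 and 2 without PP2 replicate 3 or 4. Among them, the log2 difference of Eno2, a neuronal enolase, was -3.25, but -3.85 without PSC replicate 2 and -1.64 without PSC replicate 4. Of 19 hypoxia-responsive genes, some of them glycolytic regulators, 9 were higher and 2 lower, among the higher ones Bnip3 (4.37-fold higher) and Ddit4 (4.02-fold higher), while Adm was 5.11-fold lower.

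Genes of secretion and translation differed by smaller folds. Of 29 genes of collagen processing and folding, 15 were higher and 4 lower, with the prolyl hydroxylase subunits P4ha1 and P4ha2 1.67-fold higher and 3.02-fold higher, the lysyl hydroxylase Plod2 2.77-fold higher, and the chaperone Hspa5 1.68-fold higher. The collagen chaperone Serpinh1 did not pass (adjusted p = 0.322). Cytosolic ribosomal protein genes were higher for 40 of the 78 members tested and lower in none, by little (median log2 difference 0.34), and the count was 26 without PP2 replicate 3 and 19 without both PP2 libraries 1 and 3. Respiratory chain genes were higher for 19 of the 50 members tested and lower in 1 (median 0.26), for example Cox6a1 (2.13-fold higher) and cytochrome c, Cycs (2.74-fold higher).

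Many cell cycle transcripts were lower in PSC. Of 37 genes of S to M phase, 14 were lower and none higher, with a median log2 difference of -0.75 and a summed level of 9539 to 11557 normalized counts in PSC and 16190.1 to 22849.7 in PP2. Mcm3 and Mcm7, subunits of the replicative helicase, averaged 293 ± 52.8 in PSC and 925 ± 295 in PP2 (3.05-fold lower, adjusted p = 1.90e-05) and 572 ± 130.2 in PSC and 1382 ± 640.5 in PP2 (2.29-fold lower, adjusted p = 6.18e-04). Cdk1, the mitotic kinase, had 829, 472, 535 and 686 normalized counts in PSC libraries 1 to 4, against 1143, 1359, 1243 and 1498 in PP2 libraries 1 to 4, and each PSC library was below each PP2 library. The proliferation marker Mki67 averaged 20.3 ± 23.4 in PSC and 114 ± 80.6 in PP2, and its call (adjusted p = 0.0220) was lost without PSC replicate 3 (adjusted p = 0.0789) or PP2 replicate 3 (adjusted p = 0.0631). Its log2 difference of -3.23 was -4.03 without PSC replicate 1 and -2.11 without PSC replicate 3. Among cell cycle inhibitors, Cdkn1a (p21) had 10337, 12999, 8304 and 14638 normalized counts in PSC libraries 1 to 4, against 1942, 2171, 2055 and 2915 in PP2 libraries 1 to 4, higher in every PSC library than in any PP2 library (5.04-fold higher, adjusted p = 3.01e-09). Cdkn1c (p57), which post-mitotic chondrocytes make, averaged 95787 ± 11402 in PSC and 53122 ± 3409 in PP2 (1.8-fold higher, adjusted p = 2.62e-06). Over cyclins D and their inhibitors, 4 of 16 were higher and 5 lower. Ccnd3 and Ccnd2 were 1.71-fold lower and 1.64-fold lower, and Ccnd1 did not pass (adjusted p = 0.0646).

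Immediate early and stress genes, known to be induced when tissue is dissociated, were higher in PSC for 21 of the 31 members tested and lower in none (median 1.26). Atf3 averaged 5360.3 ± 2761 in PSC and 479.5 ± 252 in PP2 (11.3-fold higher, adjusted p = 8.19e-07), Zfp36, which destabilises messenger RNA, 19069 ± 5481 in PSC and 3474 ± 1378 in PP2 (5.58-fold higher, adjusted p = 5.46e-08) and Fosb 21573 ± 7419 in PSC and 4723 ± 2426 in PP2 (4.88-fold higher, adjusted p = 1.45e-05). Fos had 53010.0, 49035, 49419 and 42182 normalized counts in PSC libraries 1 to 4, against 22153, 15900.2, 23841 and 18903 in PP2 libraries 1 to 4, without overlap, and Junb was 2.4-fold higher. Egr1 and the heat shock genes Hspa1a and Hspa1b did not pass (adjusted p = 0.219, 0.953 and 0.569). These genes moved with the same samples as Cdkn1a, Klf2 and Klf4, and their part in those results was not tested.

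**Figure D5:**
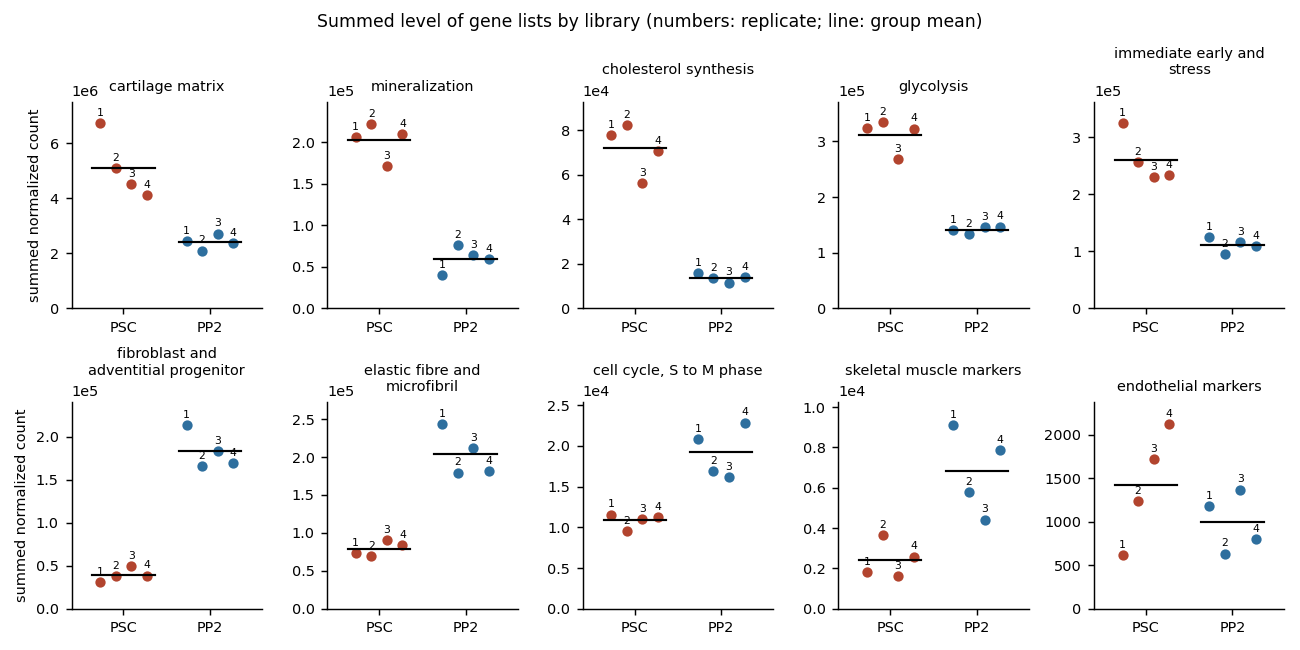
Summed normalized counts of 10 gene lists in each library, PSC left of PP2, with axes starting at 0, the replicate number above each point and a line at the group mean. The summed levels of the first 9 lists did not overlap between PSC and PP2, and those of endothelial markers did.

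Antigen presentation and interferon genes were lower in PSC for 12 of the 32 members tested and higher in 5. The class I light chain B2m averaged 7393 ± 1578 in PSC and 14119 ± 655 in PP2 (1.94-fold lower, adjusted p = 4.86e-06), H2-D1 was 2.33-fold lower, and the peptide transporter subunit Tap1 3.84-fold lower. H2-K1 was in contrast 4.0-fold higher (adjusted p = 1.40e-07), and class I genes resemble each other closely, so that counting may have divided their reads. H2-Ab1, a class II chain, had 1441, 2984, 2256 and 2802 normalized counts in PSC libraries 1 to 4, against 0, 43.1, 126 and 30.9 in PP2 libraries 1 to 4. All PSC libraries were above all PP2 libraries, and 1 PP2 library had no read, so the log2 difference of 6.80 was 5.34 without PP2 replicate 1 and 7.67 without PP2 replicate 3. The invariant chain Cd74, with which class II genes are usually expressed, averaged 22.5 ± 24.1 in PSC and 0.744 ± 1.49 in PP2 and did not pass (adjusted p = 0.139). Complement genes were lower for 6 of the 18 members tested and higher in 1, with the C1 inhibitor Serping1 at 399.8 ± 105 in PSC and 4999 ± 1382 in PP2 (12.4-fold lower, adjusted p = 9.30e-11). Chemokines and cytokines were lower for 9 of the 22 members tested and higher in 1, among them Cxcl12, of stromal cells, at 2479 ± 883 in PSC and 9907 ± 4732 in PP2 (3.82-fold lower, adjusted p = 5.88e-05), and the macrophage growth factor Csf1 (2.01-fold lower). Tnfsf11, the osteoclast-inducing ligand RANKL, and its decoy Tnfrsf11b did not pass (adjusted p = 0.170 and 0.855).

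Some transcripts of other cell types moved with the groups. Of 9 tested muscle markers, 6 were lower in PSC and 1 higher, and their summed level was 1624 to 3662 normalized counts in PSC and 4423 to 9124 in PP2, without overlap. The muscle regulators Myod1 and Pax7 were listed at 0 in all 8 libraries, and muscle markers moved with laminins and other genes that were higher in PP2. Of 14 tested Schwann and neural crest markers, 10 were higher, all by over 2-fold, and 1 lower, with a median log2 difference of 4.31. In PP2, 6 of the 15 listed markers averaged under 10 normalized counts. The summed level of the list, 16361 to 22266 normalized counts in PSC and 14055 to 16728 in PP2, rested on Pmp22 and S100b, which cartilage also expresses. That sum therefore says little of the other markers. Sox10, the defining factor, had 15.6, 119, 61.3 and 94.1 normalized counts in PSC libraries 1 to 4, against 0, 0, 0 and 11.7 in PP2 libraries 1 to 4. It was present in every PSC library and in 1 PP2 library, and its log2 difference of 4.96 was 5.87 without PP2 replicate 4 and 5.56 without PSC replicate 1. Its adjusted p was 0.00287. Of 16 endothelial markers 4 were higher and 1 lower, and their sums overlapped (615 to 2128 normalized counts in PSC and 635 to 1369 in PP2). Pecam1 had 1.12, 95.5, 124 and 260.2 normalized counts in PSC libraries 1 to 4, against 0, 0, 0 and 19.2 in PP2 libraries 1 to 4, highest in PSC library 4, and the groups overlapped. It passed with an adjusted p = 0.00926, and its log2 difference of 4.58 was 6.11 without PSC replicate 1, 3.79 without PSC replicate 4 and 5.67 without PP2 replicate 4. The call was lost in a fit of the 8 PSC and PP2 libraries alone (adjusted p = 0.0752), and the count of higher endothelial genes was 2 without PSC replicate 2, 3 or 4 and 1 without both PP2 libraries 1 and 3.

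Pericyte and smooth muscle markers were lower for 5 of the 15 members tested and higher in 2, with a summed level of 17869 to 22826 normalized counts in PSC and 17901 to 19800.1 in PP2. Rgs5, of pericytes, averaged 105 ± 64.4 in PSC and 1854 ± 938 in PP2 (adjusted p = 4.79e-06), with a log2 difference of -4.51 that was -3.65 without PSC replicate 4, while Acta2 and Tagln of contractile cells did not pass (adjusted p = 0.707 and 0.781). Osteoclast markers were lower for 3 of the 8 members tested and higher in 0, with a median log2 difference of 0.24. The lower ones included Ctsk and Acp5, the tartrate-resistant phosphatase (2.69-fold lower). The summed level of the list was 5618 to 6812 normalized counts in PSC and 9938 to 12933 in PP2. Ctsk, the gene whose promoter drives Cre in these mice, made up a large part of these sums and most of the gap between them. Calcr, the osteoclast calcitonin receptor, was listed at 0 in all 8 libraries. Of 12 myeloid markers 1 was higher and none lower, their sums overlapped (456 to 2463 normalized counts in PSC and 141 to 2083 in PP2), and Ptprc, the pan-leukocyte CD45, was listed at 0 in all 8 libraries. None of the 9 erythroid and megakaryocyte markers was higher and 1 lower, with sums of 1111 to 5839 normalized counts in PSC and 936 to 4469.9 in PP2. Of 16 adipocyte and marrow stroma markers, 6 were lower and 2 higher, and their sums were 8289 to 12910.5 normalized counts in PSC and 16210.0 to 26194 in PP2. Only 2 lymphoid markers were tested, with list sums of 204 to 314 normalized counts in PSC and 477 to 1053 in PP2. The 1 that was lower was Ebf1, which also acts in stromal cells, and its reads are part of these sums. The part of these markers in the results above was not tested.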

How the data were processed

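RNA of sorted cells was extracted with RNeasy Plus Micro columns, prepared with TruSeq RNA kits and sequenced on a HiSeq4000, per the labels' protocols. Tools listed in the submitters' processing notes are TopHat2 2.0.11, cutadapt, HTSeq 0.6.1, bcl2fastq 2.17 and DESeq2 1.6.3, with mm10 as the build. The sources used here state neither the annotation nor the filters nor whether counting used strand, so reads of overlapping or antisense genes cannot be told apart. The values the authors deposited, of unit signal, are read counts of 22559 genes in 16 libraries divided by 1 size factor per library. Dividing a library by its lowest nonzero value gave whole reads for all genes within 1e-06, and these reads served the count tests.

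Genes with at least 10 normalized counts in at least 4 libraries were tested with limma 3.58.1 in R 4.3.3 (log2(value + 1), intensity trend, all 16 libraries, 12 residual degrees of freedom). Data were also simulated with an assumed spread that was not estimated from these libraries, and with 50 genes changed by each fold. Of genes changed 1.5-fold, 2-fold, 4-fold and 8-fold between PSC and PP2, 26%, 72%, 96% and 100% were recovered. These rates may differ at the spread of the measured libraries. Alternatives were other pseudocounts (0.5 and 8), other filters, TMM rescaling, a fit of the 8 libraries, a replicate block, libraries left out, edgeR 4.0.16 and DESeq2 1.42.0.

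The members and gene lists were chosen with earlier results of these data known. Genes named by size had an adjusted p below 0.05, no overlap between groups, at least 10 normalized counts in all 8 libraries and a mean of at least 200 in the higher group, 15 in each direction, of which 1 fall is not reported here. Genes without a read in 1 group were named where the other group averaged at least 200. In each list, members with small adjusted p and members known for their role were named. Lists were matched by Ensembl ID, symbols are the table's, and 21829 IDs (96.8%) had coordinates in GENCODE M21 (GRCm38).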

Additional observations from a re-analysis of the deposited data

Results flagged for a closer look

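In 34 of 594 pairs of a named gene and a group, 1 library stood apart by Dixon's ratio of its gap to the group's range (above the 95% critical value for 4 libraries), where chance flags about 1 in 20 groups. Values are normalized counts, each with that of the nearest library of its group. PSC library 1 stood apart in Adamts5 at 128 (nearest 76.4), Bmp6 at 2039 (nearest 3001), Foxa3 at 3386 (nearest 2225) and Fxyd2 at 4655 (nearest 3111). It also did in Id1 at 14464 (nearest 9292), Id2 at 5910.1 (nearest 4054), Matn1 at 315432 (nearest 155101) and P4ha1 at 19439.9 (nearest 17081). It also did in Ptch1 at 4483 (nearest 2748). PSC library 2 stood apart in Acp5 at 322 (nearest 223), Alpl at 18866 (nearest 14529.7) and Scd1 at 14147 (nearest 11026). PSC library 3 stood apart in Fgfr3 at 11472 (nearest 15439.6), Mmp14 at 7867 (nearest 5523), Pdgfra at 1752 (nearest 865) and Slc16a3 at 3159 (nearest 4456). It also did in Tbx4 at 199 (nearest 111). PSC library 4 stood apart in Adm at 110.3 (nearest 59.3) and Tppp3 at 521 (nearest 186). PP2 library 1 stood apart in Adh1 at 1683 (nearest 1028), Col5a3 at 10419 (nearest 6673), Igfbp6 at 15205 (nearest 8809) and Lamb1 at 10237 (nearest 6674). It also did in Nog at 814 (nearest 226), Pthlh at 408 (nearest 599), Sost at 2.2 (nearest 0) and Tnxb at 28972 (nearest 15745). It also did in Zfp36 at 5542 (nearest 2827). PP2 library 2 stood apart in Cd74 at 2.97 (nearest 0). PP2 library 4 stood apart in Dusp6 at 1131 (nearest 955), Mepe at 8.36 (nearest 0), Pecam1 at 19.2 (nearest 0) and Sema3c at 4055 (nearest 2974). It also did in Sox10 at 11.7 (nearest 0). The groups did not overlap for these genes, except for Cd74, Id2, Pecam1 and Sost. The outlying libraries in PP2 of Cd74, Mepe, Pecam1, Sost and Sox10 are those with reads where the other 3 had none.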

How the results depend on the processing

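The number of genes that differed between PSC and PP2 was 4520, and it ranged from 3533 in a fit of the 8 PSC and PP2 libraries alone to 4834 with the replicate block over the 19 alternatives. It was 4201 and 4243 with edgeR (TMM and RLE factors), 4638 with DESeq2, 4509 after TMM rescaling, 4327 without a filter, and 3792 to 4337 when 1 library was left out. Without PP2 libraries 1 and 3 it was 3641, of which 3270 were among the 4520. The share of calls that were higher in PSC stayed between 51.0% with DESeq2 and 55.5% after TMM rescaling, against 53.6%. The labels give both groups replicate numbers 1 to 4, but same-numbered PSC and PP2 libraries deviated from their group means with correlations of only 0.0371, 0.0916, 0.0332 and 0.0216 across genes, 3 of the 4 PSC libraries correlating best with their own number, and the numbers were not taken as pairs. With the replicate block, the count of higher ribosomal protein genes was 62 in place of 40.

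Of the 297 genes named, 257 passed, and 10 of these lost their call under at least 1 alternative (Col1a1, Eno2, Eno3, Enpp1, Itga6, Mki67, Pecam1, Pfkp, Slc2a3 and Sost). None changed sign. Of the genes that did not pass, 15 did under at least 1 alternative, mostly 1 of them. Those that did under 3 or more were Col2a1, Ccnd1, Enpep, Pmp22 and Thy1. Counts in 9 lists moved by over 1.5 times from a main count of 4 or more. In a fit of the 8 libraries, the count of higher genes was 3 in place of 5 for mesenchymal and limb factors and for Wnt receptors and targets, and 2 in place of 4 for endothelial markers. The count of lower genes was 3 in place of 5 for glycosaminoglycan synthesis, 5 in place of 9 for BMP ligands and receptors, and 1 in place of 4 for glycolysis. Without both PP2 libraries 1 and 3, higher genes were 1 in place of 4 for endothelial markers, 2 in place of 4 for matrix proteases and inhibitors, 3 in place of 5 for antigen presentation and interferon, and 19 in place of 40 for ribosomal proteins. Lower genes were then 5 in place of 9 for BMP ligands and receptors and 2 in place of 4 for glycolysis. With edgeR or DESeq2, and without single libraries, the counts that moved are given with their lists above. The cause of these changes was not tested. Depth limits genes with few reads: in an average library 7.06% of tested genes in PSC and 11.4% in PP2 had none.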
